A study of Homo sapiens with 6 samples.

Results

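The EMT regulators are 8 genes of the epithelial-mesenchymal transition: the cadherin genes CDH1 and CDH2, the vimentin gene VIM, and the transcription factor genes SNAI1, SNAI2, ZEB1, ZEB2 and TWIST1. They were chosen by name, as 8 of the 20163 protein-coding genes of the annotation, and are described here by every KDM3B and H3K9me2 region that lay within 5 kb or 20 kb of an annotated transcription start site (TSS) or inside the gene. The study used HCT116, an established human colorectal cancer line. Control cells (HCT116/Scrsh, carrying a scramble shRNA) were compared with HCT116/ABsh-1 cells, in which an shRNA targets KDM3A and KDM3B together. The deposited labels mention siRNA transfection with RNAiMAX instead, and give 2 days of culture in DMEM for all cells. Chromatin was precipitated with an antibody to KDM3B or to H3K9me2 and sequenced, with 1 library for each antibody and cell population. The 2 input libraries were not analysed here.

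The 4 region lists described are KDM3B in HCT116/Scrsh with 17638 regions, KDM3B in HCT116/ABsh-1 with 8046, H3K9me2 in HCT116/Scrsh with 11645, and H3K9me2 in HCT116/ABsh-1 with 88855. Each region has a start, an end and a whole-number score whose meaning is not named in the sources used here, so a score is read only against the other regions of its own list, as the percentage of them that score lower. With 1 library per list there is no replicate error and no test between the cell populations. The sequencing depth is unknown, and a region missing from a list is one that was not called at that depth. The lists hold no expression values, and whether the 8 genes were transcribed in these cells was not measured by them. KDM3B, the protein precipitated, is itself a target of the knockdown, and the knockdown cannot be checked from these lists.

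In the epithelial-mesenchymal transition, epithelial cells give up their junctions and gain motility, a change that the cells of a carcinoma can use to spread. CDH1 encodes E-cadherin, the adhesion molecule of epithelial junctions, while CDH2 (N-cadherin) and VIM (an intermediate filament protein) are typical of mesenchymal cells. The SNAI and ZEB zinc finger proteins and the basic helix-loop-helix protein TWIST1 repress CDH1, the SNAI and ZEB proteins through E-box sequences in its promoter. H3K9me2 is a histone mark associated with silent chromatin, and KDM3A and KDM3B are demethylases that remove it.

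The KDM3B list of HCT116/Scrsh held regions within 5 kb of a TSS of 5 members (CDH1, VIM, SNAI1, SNAI2 and ZEB1), while 35.0% of all protein-coding genes had one. The KDM3B list of HCT116/ABsh-1 kept VIM and SNAI1, so 2 members, beside 19.2% of all genes. H3K9me2 regions in HCT116/Scrsh came within 5 kb of TWIST1 alone, with a background of 10.2%. In HCT116/ABsh-1 the H3K9me2 list reached 6 members (CDH2, VIM, SNAI1, ZEB1, ZEB2 and TWIST1), against 49.2% of all genes. The H3K9me2 lists thus differ at the members in the same direction as over all genes, and the list of HCT116/ABsh-1 is itself the longest. None of the 8 members was without a region in all 4 lists by the 5 kb rule, a pattern held by 31.6% of protein-coding genes. Because every annotated TSS counts, the bases within 5 kb ran from 10.0 kb at SNAI1 to 81.5 kb at ZEB2. The shares of all genes were not matched for this size.

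Within 20 kb of a TSS, TWIST1 joined the KDM3B list of HCT116/Scrsh, for 6 members beside 53.9% of all genes, and ZEB2 joined the H3K9me2 list of HCT116/Scrsh, for 2 members beside 21.8%. All 8 members had an H3K9me2 region of HCT116/ABsh-1 at that distance, with 63.5% of genes in the background. The KDM3B list of HCT116/ABsh-1 still held only VIM and SNAI1, where the background was 33.7%. Inside the gene, KDM3B regions of HCT116/Scrsh were found in CDH1, VIM, ZEB1 and TWIST1, 4 members beside 34.3% of genes, and those of HCT116/ABsh-1 in VIM alone, beside 19.1%. The TWIST1 region lay beyond the end of the canonical transcript. With the canonical transcript in place of the gene, KDM3B of HCT116/Scrsh was inside 3 members. H3K9me2 regions of HCT116/Scrsh were found inside 2 members (ZEB2 and TWIST1) beside 15.9%, and those of HCT116/ABsh-1 inside 7 members, SNAI2 being the exception, beside 51.2%. In all, 34 regions fell within 20 kb of a TSS or in the body of a member: 13 and 2 for KDM3B, and 2 and 17 for H3K9me2, in HCT116/Scrsh and HCT116/ABsh-1 respectively.

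**Figure D1:**
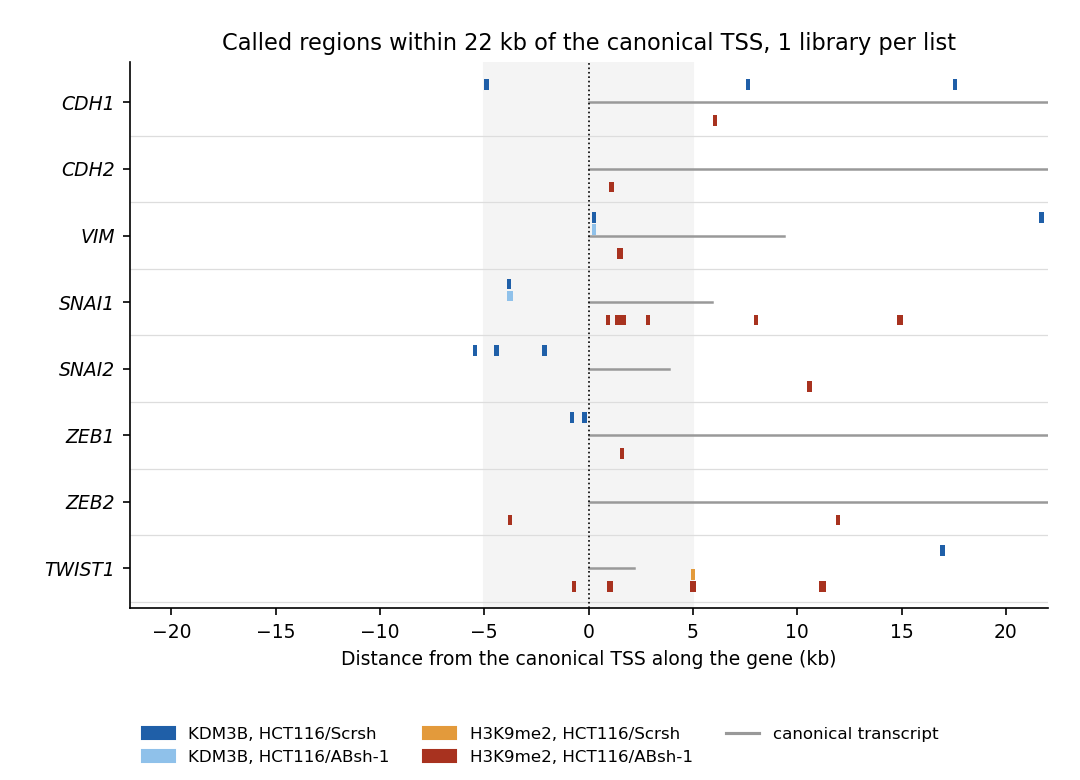
Regions of the 4 lists around the canonical TSS of each member, with distance from that TSS in kb on the horizontal axis, oriented so that transcription runs to the right, and a row for each list within each gene. Marks show regions, drawn wider than to scale where they are narrow, grey lines the canonical transcripts, and the shaded band 5 kb on either side. The H3K9me2 marks of HCT116/ABsh-1 lie downstream of the TSS at CDH2, VIM, SNAI1 and ZEB1, and KDM3B marks of both cell populations stand together only at VIM and SNAI1.

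CDH1 (ENSG00000039068), the E-cadherin gene, lies at hg19 chr16:68771195-68869440 on the plus strand and spans 98.2 kb. Its 3 KDM3B regions were in the HCT116/Scrsh list: a 200-bp region with score 34 centred 4894 bp upstream of the canonical TSS, and a pair of 100-bp regions in intron 2, with scores of 16 and 7. The upstream region outscored 63.4% of its list, while the intron regions outscored 28.1% and 0.4%. No KDM3B region of HCT116/ABsh-1 lay nearer than 20.5 kb to a CDH1 TSS, and the nearest H3K9me2 region of HCT116/Scrsh was 147 kb away. The H3K9me2 list of HCT116/ABsh-1 had 2 regions in CDH1, both in intron 2 and none within 5 kb of a TSS. One was a 100-bp region with score 10 (above 2.0% of its list) centred 6056 bp downstream of the TSS, and the other a 300-bp region with score 45 (above 62.3%) 44856 bp downstream. The upstream KDM3B region and both H3K9me2 regions are printed below from the plus strand of hg19, because they show how unlike in sequence the CDH1 regions were. Capitals mark a CTTTGAT heptamer, the core that TCF proteins bind in Wnt target genes.
CDH1 KDM3B, HCT116/Scrsh, chr16:68766201-68766400: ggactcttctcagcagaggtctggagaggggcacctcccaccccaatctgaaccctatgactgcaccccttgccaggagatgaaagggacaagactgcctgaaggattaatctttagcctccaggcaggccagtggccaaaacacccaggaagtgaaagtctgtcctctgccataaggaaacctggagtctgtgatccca
CDH1 H3K9me2, HCT116/ABsh-1, chr16:68777201-68777300: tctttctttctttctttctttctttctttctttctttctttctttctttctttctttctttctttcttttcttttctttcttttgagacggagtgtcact
CDH1 H3K9me2, HCT116/ABsh-1, chr16:68815901-68816200: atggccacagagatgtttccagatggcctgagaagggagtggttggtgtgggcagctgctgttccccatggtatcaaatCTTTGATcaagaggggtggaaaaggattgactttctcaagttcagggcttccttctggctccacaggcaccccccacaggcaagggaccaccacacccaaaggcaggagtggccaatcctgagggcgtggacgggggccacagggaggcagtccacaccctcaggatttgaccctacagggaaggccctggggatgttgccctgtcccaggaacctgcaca

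The KDM3B region upstream of CDH1 had a GC content of 54.5% and held 0 CpG dinucleotides. The low-scoring H3K9me2 region in CDH1 consists largely of a TTTC repeat, with a GC content of 29.0%. Only 31.4% of the 50-base words inside it occur once in the genome, so reads of that length could be placed there uniquely at few positions. Without that region, CDH1 keeps 1 H3K9me2 region. Over all members, 32 of the 34 regions consisted wholly of unique 50-base words, and the TTTC repeat had the smallest share of them.

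CDH2 (ENSG00000170558), the N-cadherin gene at chr18:25512843-25757910 on the minus strand, had a single region in all 4 lists together, although it is the longest member at 245 kb. It was a 200-bp H3K9me2 region of HCT116/ABsh-1 in intron 1, centred 1094 bp downstream of the canonical TSS, with score 27 (above 45.1% of its list). The nearest KDM3B region lay 1152 kb from a CDH2 TSS in HCT116/Scrsh and 360 kb away in HCT116/ABsh-1, and the nearest H3K9me2 region of HCT116/Scrsh 1336 kb away. CDH2 thus stood in a large stretch without regions in the other 3 lists. The sequence, read along the gene (minus strand), is given as the only region at CDH2. It has a GC content of 66.5% and 13 CpG dinucleotides, and capitals mark an E-box of the form CACCTG or CAGGTG.
CDH2 H3K9me2, HCT116/ABsh-1, chr18:25755901-25756100: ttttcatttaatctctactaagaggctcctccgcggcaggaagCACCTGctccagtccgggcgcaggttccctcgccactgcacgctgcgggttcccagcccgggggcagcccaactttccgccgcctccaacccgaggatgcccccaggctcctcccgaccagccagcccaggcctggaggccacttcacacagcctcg

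VIM (ENSG00000026025), at chr10:17270240-17279592 on the plus strand, was the member where KDM3B was called at the promoter in both cell populations. The 2 lists gave the identical 200 bp, chr10:17270401-17270600, centred 260 bp downstream of the canonical TSS and covering another annotated VIM TSS. The score was 39 in control cells and 24 in HCT116/ABsh-1, above 68.5% and 64.3% of the respective list. The antisense gene VIM-AS1 covers the same stretch, and a region cannot be given to one strand. HCT116/Scrsh had a further 100-bp KDM3B region with score 14 beyond the end of the gene, 21710 bp downstream of the TSS. H3K9me2 was called in HCT116/ABsh-1 only, as a 300-bp region with score 40 (above 57.9% of its list) in the coding part of exon 2, centred 1510 bp downstream of the TSS. In HCT116/Scrsh the nearest H3K9me2 region to a VIM TSS lay 196 kb away. The H3K9me2 region is printed to show the CpG-rich sequence beside the KDM3B region. It has 27 CpG dinucleotides, a GC content of 64.7% and no E-box of the form CACCTG or CAGGTG.
VIM H3K9me2, HCT116/ABsh-1, chr10:17271601-17271900, plus strand: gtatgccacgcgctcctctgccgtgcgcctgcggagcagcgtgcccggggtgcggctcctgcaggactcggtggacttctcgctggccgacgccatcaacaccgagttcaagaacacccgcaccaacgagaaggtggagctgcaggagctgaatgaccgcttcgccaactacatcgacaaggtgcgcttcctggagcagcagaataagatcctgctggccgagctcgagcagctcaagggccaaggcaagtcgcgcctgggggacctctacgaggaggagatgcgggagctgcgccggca

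SNAI1 (ENSG00000124216), which encodes the Snail repressor at chr20:48599517-48605423 on the plus strand, had KDM3B at the same place upstream of the gene in both cell populations. The region ran over 200 bp with score 46 in HCT116/Scrsh, above 74.8% of that list, and over 300 bp with score 46 in HCT116/ABsh-1, above 85.7% of that list. Equal scores in different lists are not equal signals, since the lists were called separately. No H3K9me2 region of HCT116/Scrsh lay nearer than 689 kb. The H3K9me2 list of HCT116/ABsh-1 had 5 regions, the most of any member. They comprised 3 inside this 5.91-kb gene, centred 934, 1534 and 2834 bp downstream of the TSS, and 2 beyond its end, at 8034 and 14934 bp. The 500-bp region at 1534 bp, over coding exon 2 and intron 2, had score 100, which is above 85.5% of its list and the highest score of any member H3K9me2 region. The others scored 17, 15, 11 and 60. The KDM3B region of HCT116/ABsh-1, which contains that of HCT116/Scrsh, is printed because it is the place at SNAI1 where KDM3B was called in both lists. It holds 18 CpG dinucleotides and 1 E-box of the form CACCTG or CAGGTG, in capitals. Other E-box forms were not counted.
SNAI1 KDM3B, HCT116/ABsh-1, chr20:48595601-48595900, plus strand: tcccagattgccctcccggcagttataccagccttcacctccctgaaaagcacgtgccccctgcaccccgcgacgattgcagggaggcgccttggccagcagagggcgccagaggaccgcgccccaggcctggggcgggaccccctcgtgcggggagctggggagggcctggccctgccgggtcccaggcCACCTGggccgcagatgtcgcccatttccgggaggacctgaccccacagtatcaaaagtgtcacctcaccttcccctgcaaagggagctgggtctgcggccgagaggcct

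SNAI2 (ENSG00000019549), the Slug gene at chr8:49830157-49834299 on the minus strand, had the most KDM3B regions of HCT116/Scrsh upstream of its TSS. They were centred 2112, 4412 and 5462 bp upstream of the canonical TSS, with scores of 40, 60 and 9, above 69.5%, 83.7% and 3.6% of the list. The 2 farther ones lay over the non-coding gene ENSG00000287788. The lowest-scoring of the 3 was 5102 bp from the nearest TSS and so just outside the 5 kb rule. The score of 60 was the highest of any member KDM3B region. All 3 were absent from the HCT116/ABsh-1 list, whose nearest KDM3B region was 2981 kb away. One H3K9me2 region of HCT116/ABsh-1, 200 bp wide with score 47, lay 10588 bp downstream of the TSS, beyond the end of the gene. In HCT116/Scrsh the nearest H3K9me2 region was 55.8 kb away, and the gene body of SNAI2 held no region of any list.

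**Figure D2:**
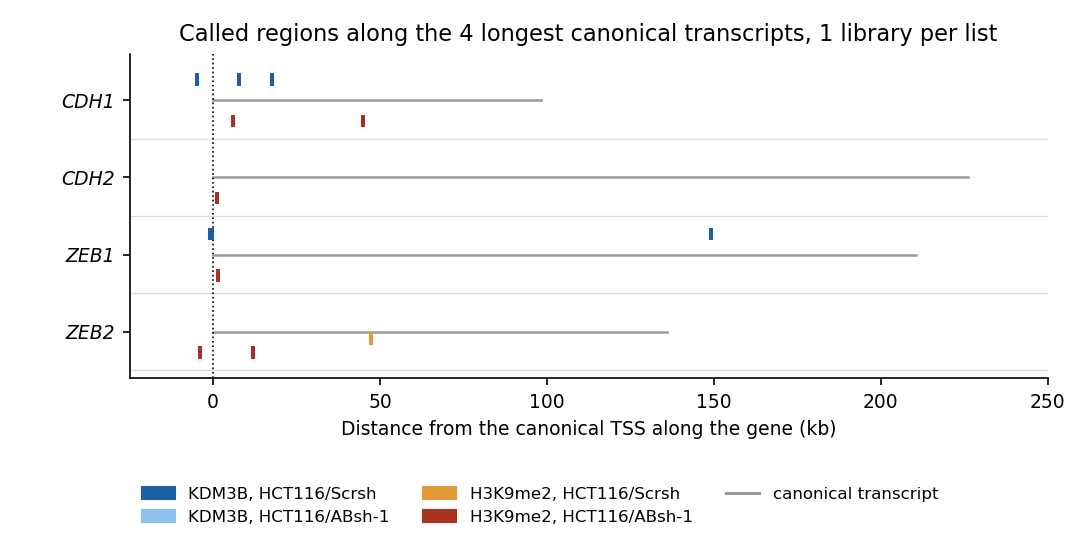
Regions of the 4 lists along the 4 members with the longest canonical transcripts (grey lines), with position in kb from the canonical TSS on the horizontal axis, oriented in the direction of transcription, and a row for each list. Narrow regions are drawn wider than to scale. CDH2 carries 1 region in all 4 lists, and the KDM3B rows of ZEB2 are empty.

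ZEB1 (ENSG00000148516), at chr10:31607424-31818742 on the plus strand, had narrow and low-scoring regions close to its start. KDM3B in HCT116/Scrsh was called in a pair of 100-bp windows centred 794 and 194 bp upstream of the canonical TSS, with scores of 13 and 10, above 17.5% and 6.6% of the list. They lay 24 and 54 bp from the nearest of the 21 annotated ZEB1 TSSs, and over exons of the divergent gene ZEB1-AS1. The window at 194 bp was also inside the annotated ZEB1 gene and over an exon of ZEB1. Another 100-bp KDM3B region with score 17 was in intron 2, 149206 bp downstream. No KDM3B region of HCT116/ABsh-1 was nearer than 389 kb. H3K9me2 in HCT116/ABsh-1 was called once, over 100 bp of intron 1 centred 1606 bp downstream of the TSS, with score 21 (above 37.5% of its list), and the nearest H3K9me2 region of HCT116/Scrsh was 85.9 kb away. The 3 regions around the canonical TSS are printed from the plus strand, with KDM3B and H3K9me2 windows on either side of that TSS. The CACCTG E-box of the second is in capitals.
ZEB1 KDM3B, HCT116/Scrsh, chr10:31607301-31607400: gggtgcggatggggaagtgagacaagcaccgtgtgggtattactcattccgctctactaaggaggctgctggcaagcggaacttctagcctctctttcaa
ZEB1 KDM3B, HCT116/Scrsh, chr10:31607901-31608000: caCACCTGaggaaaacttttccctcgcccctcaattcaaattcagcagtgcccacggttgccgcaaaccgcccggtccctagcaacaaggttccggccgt
ZEB1 H3K9me2, HCT116/ABsh-1, chr10:31609701-31609800: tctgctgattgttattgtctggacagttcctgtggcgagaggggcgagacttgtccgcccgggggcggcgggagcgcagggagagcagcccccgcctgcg

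ZEB2 (ENSG00000169554), at chr2:145121931-145278624 on the minus strand, had no KDM3B region in either cell population. The nearest lay 234 kb from a TSS in HCT116/Scrsh and 1137 kb away in HCT116/ABsh-1. H3K9me2 in HCT116/Scrsh had 1 region of 100 bp with score 12 in intron 2, 47236 bp downstream of the canonical TSS. It did not overlap the 2 regions of HCT116/ABsh-1, also of 100 bp. These were one in intron 2 with score 12, 11936 bp downstream of the canonical TSS but 714 bp from one of the 46 annotated TSSs, and one with score 11 located 3764 bp upstream. Both outscored few regions of their list, 7.4% and 4.1%. The former was within 5 kb of a TSS only through the gene's other start sites, and the latter also lay over an exon of the non-coding gene LINC01412. The intron region is printed from the minus strand as the H3K9me2 window nearest to a ZEB2 TSS, with a GC content of 58.0%.
ZEB2 H3K9me2, HCT116/ABsh-1, chr2:145265701-145265800: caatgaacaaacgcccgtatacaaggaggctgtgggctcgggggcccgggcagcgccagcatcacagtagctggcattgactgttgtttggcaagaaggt

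TWIST1 (ENSG00000122691), at chr7:19060614-19157259 on the minus strand, was the only member with H3K9me2 regions of both cell populations at one place. Its canonical transcript is 2.17 kb long, and 1 long annotated transcript extends the gene to 96.6 kb. In HCT116/Scrsh a 100-bp H3K9me2 region with score 16 (above 65.6% of its list) was centred 5008 bp downstream of the TSS. In HCT116/ABsh-1 a 300-bp region with score 64 (above 74.0%) contained it, with the same centre, over an exon of the non-coding gene ENSG00000232821. The HCT116/ABsh-1 list had 3 further regions at TWIST1. They were centred 11208 and 1008 bp downstream and 692 bp upstream of the TSS, with scores of 56, 57 and 21. The region at 1008 bp covers coding exon 1 and intron 1. KDM3B was called once, in HCT116/Scrsh, over 200 bp with score 33 (above 62.3%) located 16958 bp downstream of the canonical TSS, and the nearest KDM3B region of HCT116/ABsh-1 was 420 kb away. The H3K9me2 region shared by both lists is printed from the minus strand. It holds 27 CpG dinucleotides and 1 E-box of the form CACCTG or CAGGTG, in capitals.
TWIST1 H3K9me2, HCT116/ABsh-1, chr7:19152101-19152400: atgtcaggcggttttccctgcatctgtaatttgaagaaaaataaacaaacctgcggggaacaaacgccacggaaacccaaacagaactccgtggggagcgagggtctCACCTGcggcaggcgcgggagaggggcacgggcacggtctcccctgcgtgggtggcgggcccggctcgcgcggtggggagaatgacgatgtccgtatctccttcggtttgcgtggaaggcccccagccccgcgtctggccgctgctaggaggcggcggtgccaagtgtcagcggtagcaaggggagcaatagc

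Between the cell populations, 3 members had KDM3B within 5 kb in HCT116/Scrsh and not in HCT116/ABsh-1 (CDH1, SNAI2 and ZEB1), beside 20% of all protein-coding genes. The opposite pattern was held by 0 members and 4.24% of genes. For H3K9me2, 5 members (CDH2, VIM, SNAI1, ZEB1 and ZEB2) had a region within 5 kb in HCT116/ABsh-1 and not in HCT116/Scrsh, beside 40.2% of genes, and 0 members had the opposite, beside 1.19%. At the members, that direction turned when the longer H3K9me2 list was shortened by score to the 11645 regions of the other. Then 0 members had H3K9me2 of HCT116/ABsh-1 within 5 kb, within 20 kb or in the body, while HCT116/Scrsh had 1, 2 and 2. The shares of all protein-coding genes with the shortened list were not computed. Whether genes in general turned the same way is therefore unknown. KDM3B in HCT116/Scrsh together with H3K9me2 in HCT116/ABsh-1 was found within 5 kb of VIM, SNAI1 and ZEB1, so 3 members beside 18.7% of genes. At the wider distance of 20 kb, CDH1, SNAI2, ZEB1 and TWIST1 had KDM3B in control cells alone, so 4 members beside 24.6% of genes, and 0 members beside 4.35% had it after the knockdown alone. H3K9me2 was called after the knockdown alone at 6 members (CDH1, CDH2, VIM, SNAI1, SNAI2 and ZEB1) beside 44.3%, and in control cells alone at 0 beside 2.5%. All members but CDH2 and ZEB2 combined KDM3B of HCT116/Scrsh with H3K9me2 of HCT116/ABsh-1, so 6 members beside 39.6%. In the gene body, 3 members (CDH1, ZEB1 and TWIST1) had KDM3B in control cells alone beside 19.5%, with 0 the other way beside 4.36%, and 5 members (CDH1, CDH2, VIM, SNAI1 and ZEB1) had H3K9me2 after the knockdown alone beside 37.4%.

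As a pattern over the 4 lists within 5 kb, CDH1 and SNAI2 each had KDM3B of HCT116/Scrsh and none of the other 3 lists, which 9.83% of protein-coding genes had. The pattern of CDH2 and ZEB2, with H3K9me2 of HCT116/ABsh-1 alone, was held by 22.4% of genes. VIM and SNAI1 shared theirs with 7.41%, ZEB1 with 8.55% and TWIST1 with 5.95%.

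Of the 13 member KDM3B regions of HCT116/Scrsh, 2 overlapped one of HCT116/ABsh-1 by at least 1 base, where 25.7% of the whole list did. Both member KDM3B regions of HCT116/ABsh-1 overlapped one of HCT116/Scrsh, where 56.4% of that list did. For H3K9me2, 1 of the 2 member regions of HCT116/Scrsh, at TWIST1, overlapped one of HCT116/ABsh-1, where 35.4% of the list did. In the other direction it was 1 of 17, near the 4.47% of the whole list. KDM3B of HCT116/Scrsh and H3K9me2 of HCT116/ABsh-1 did not overlap at any member, and 0.533% of the KDM3B regions of the whole list overlapped such a region. The smallest gap between them was 1.0 kb at VIM, 1.5 kb at CDH1 and 1.7 kb at ZEB1. It was 4.6 kb at SNAI1, 5.5 kb at TWIST1 and 12.5 kb at SNAI2. Within 2 kb of an H3K9me2 region were 3 of the 13 KDM3B regions, and 19.6% of the whole list. The CDH1 gap is to the TTTC repeat, and without that region it was 27.1 kb, with 2 of the 13 KDM3B regions within 2 kb.

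Of the 17 H3K9me2 regions of HCT116/ABsh-1, 15 were centred downstream of the canonical TSS of their gene, and 2 upstream. The windows are themselves mostly downstream, with 84.4% of their bases there. Over all protein-coding genes 70.9% of such regions were downstream, with 73.4% of the bases. The downstream shares over all genes, here and within 5 kb, count a region or base once for every gene whose window held it. Within 5 kb of the canonical TSS, where both sides are equally long, 8 member regions of this list were downstream and 2 upstream, beside 59.2% downstream over all genes. The member KDM3B regions of HCT116/Scrsh at that distance were 1 downstream (VIM) and 6 upstream, beside 33.9% downstream. In the first 2 kb downstream of the canonical TSS, 5 members (CDH2, VIM, SNAI1, ZEB1 and TWIST1) had such an H3K9me2 region, beside 26.3% of genes. KDM3B of HCT116/Scrsh was found there at VIM alone, beside 11.7%. This 2 kb window was chosen after the positions had been seen. The 6 members with an H3K9me2 region of HCT116/ABsh-1 within 5 kb had 100 to 700 covered bases, and the median over the 9930 protein-coding genes with one was 700. SNAI1 and TWIST1 had 700 each, more than 75.2% of all genes, and VIM had 300.

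The scores placed the members unevenly in their lists. The 13 KDM3B regions of HCT116/Scrsh had a median score of 17, and 6 of them were above the median of 24 of the whole list. Both KDM3B regions of HCT116/ABsh-1 were above the median of 17 of their list. The 17 H3K9me2 regions of HCT116/ABsh-1 had a median score of 27, with 8 above the list median of 31. The highest scores were at SNAI1 and TWIST1, and those of ZEB1 and ZEB2 were all below the list median. Scores followed width in large part. Among the 17, regions of 100 bp scored 10 to 21, those of 300 bp 40 to 64, and the 500-bp region 100. When the longer list was shortened to its 11645 highest-scoring H3K9me2 regions, the number called in HCT116/Scrsh, the lowest score kept was 106, and none of the 17 member regions, with scores of up to 100, was among them. After the same shortening of the longer KDM3B list to 8046 regions, CDH1, VIM, SNAI1 and SNAI2 kept a region within 5 kb and ZEB1 did not.

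**Figure D3:**
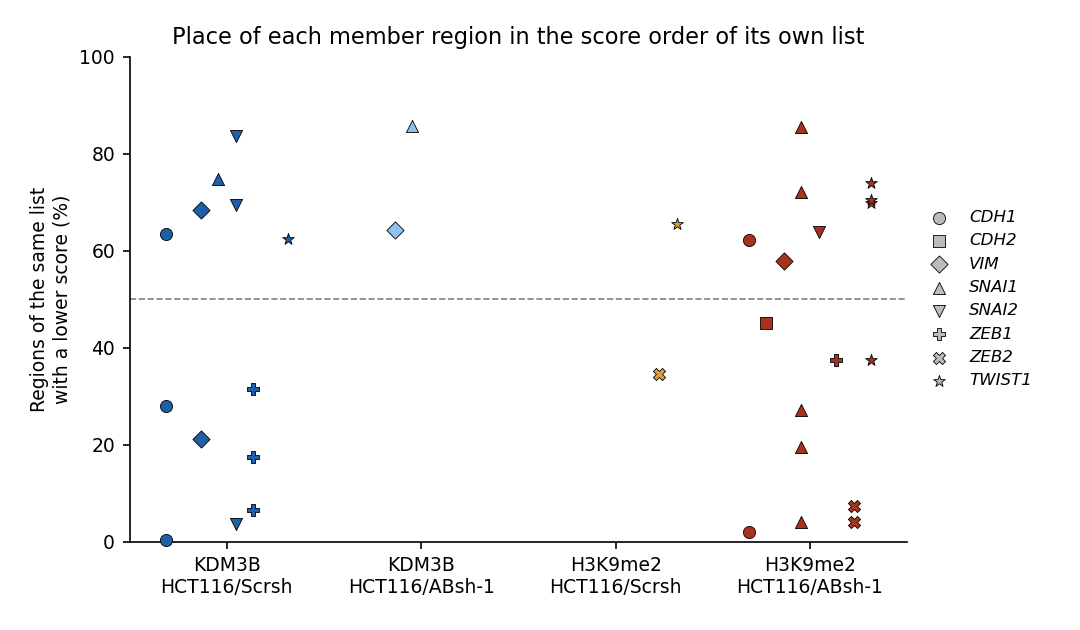
Place of each member region in its own list, as the percentage of that list's regions with a lower score, on the vertical axis from 0 to 100, with the 4 lists along the horizontal axis. Each point is 1 region, its shape gives the gene, and the dashed line stands at 50%. The highest H3K9me2 point of HCT116/ABsh-1 is SNAI1 at 85.5%, the highest KDM3B point of HCT116/Scrsh is SNAI2 at 83.7%, and ZEB1 and ZEB2 have no point above 37.5%.

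Relative to length, the member windows (1041 kb in all) held 1.25 KDM3B regions of HCT116/Scrsh per 100 kb, where the windows of all protein-coding genes held 0.845. For KDM3B of HCT116/ABsh-1 the values were 0.192 and 0.392, and for H3K9me2 of HCT116/Scrsh 0.192 and 0.452. H3K9me2 regions of HCT116/ABsh-1 were less dense around the members, with 1.63 per 100 kb beside 4.54 around all genes. Within the members this density ran from 0.377 per 100 kb at CDH2 and 0.432 at ZEB1 to 12.5 at SNAI1. The member windows had a GC content of 39.3%, and those of all protein-coding genes 42.2%. Among the members the GC content was 37.3% at CDH2, 36.1% at ZEB1 and 50.2% at SNAI1. The order was not the same throughout, since TWIST1 at 37.4% had 3.43 regions per 100 kb and CDH1 at 47.1% had 1.59. The part of base composition in these densities was not tested.

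The members' promoters differed in composition. Within 500 bp of the canonical TSS, GC content ran from 49.4% at ZEB2 and 50.9% at SNAI2 to 70.5% at TWIST1 and 73.3% at CDH2, with a median of 61.3% over protein-coding genes. The member H3K9me2 regions of HCT116/ABsh-1 had a median GC content of 63.3%, close to the 62.4% of their whole list. The KDM3B regions of HCT116/Scrsh had a median of 53.0% beside 53.5%.

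E-boxes are the sequences through which SNAI and ZEB proteins bind CDH1. A search of both strands for CACCTG, which reads CAGGTG on the other strand, found one in 6 of the 13 member KDM3B regions of HCT116/Scrsh, where 20.1% of the whole list held one. It found one in 5 of the 17 member H3K9me2 regions of HCT116/ABsh-1, where 35.9% of that list did. Regions differ in width, which changes how often a match occurs. For KDM3B of HCT116/Scrsh, 13.5% of all 100-bp regions and 22.7% of all 200-bp regions held one. For H3K9me2 of HCT116/ABsh-1 these shares were 16.8% and 30.5%. Most member H3K9me2 regions with a match were 300 or 500 bp wide, and shares at those widths were not computed. In the 250 bases before the canonical TSS, 3 members had a match, CDH1 at positions -80 and -29, SNAI1 at -146, and ZEB1 at -242 and -85, beside 17.3% of protein-coding genes. No region of any list covered these bases at CDH1 or SNAI1, and a KDM3B region of HCT116/Scrsh overlapped them at ZEB1. The heptamer CTTTGAT, in which the other strand reads ATCAAAG, was found in 1 of the 34 member regions, the H3K9me2 region of CDH1 printed above, while 1.65% of its list held one. A match is a string of letters and not a measured site.

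Among 58 other genes of the pathway, KDM3B lay within 5 kb of 30 in control cells and of 15 after the knockdown, while H3K9me2 did so for 8 and 41. The shares are 51.7%, 25.9%, 13.8% and 70.7%, beside 35.0%, 19.2%, 10.2% and 49.2% of protein-coding genes. The 58 include 5 miRNA genes, placed by their hairpin annotation, while the background holds protein-coding genes only. The median number of bases under H3K9me2 within 5 kb in HCT116/ABsh-1 was 450 for these 58 genes and 200 for the 8 members. It was 0 over all protein-coding genes, of which 49.2% had such a region, and 700 over the 9930 with one. Of the 10 other transcription factors of the transition, 2 had KDM3B in either cell population (TCF3 and FOXC2), and 9 had H3K9me2 in HCT116/ABsh-1, with 1 in HCT116/Scrsh. SNAI3, a relative of SNAI1, had the most H3K9me2 of this group, over 3886 bases within 5 kb, beside 700 at SNAI1. Within 20 kb of SNAI3 it covered 14200 bases, so it was not confined to the start of the gene. Of the 13 epithelial gatekeepers, which include the miR-200 genes and the ESRP splicing factors, 12 had KDM3B in control cells and 7 after the knockdown. H3K9me2 was found at 1 and 11 of them, and MIR429 had the most in HCT116/ABsh-1, over 4185 bases. The 5 miRNA genes among these 13 lie in clusters and share regions, so they are not independent. Each of them had KDM3B of HCT116/Scrsh and H3K9me2 of HCT116/ABsh-1 within 5 kb. GRHL1, OVOL2 and ELF3 had KDM3B in HCT116/Scrsh only, ESRP2 and GRHL3 in both cell populations and OVOL1 in HCT116/ABsh-1 only, and these 6 were named for having H3K9me2 in HCT116/ABsh-1 as well. ESRP1 and GRHL2 had KDM3B in both cell populations and no H3K9me2 region of HCT116/ABsh-1 within 5 kb, and GRHL2 had 1 H3K9me2 region in HCT116/Scrsh.

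Of the 13 junction and keratin genes, whose products work with E-cadherin in epithelia, 8 had KDM3B in control cells and 3 after the knockdown. H3K9me2 was found at 0 and 7, and CDH3, CLDN4, CTNND1 and KRT18 had both KDM3B and H3K9me2 within 5 kb. The other 4 with KDM3B in HCT116/Scrsh (EPCAM, CLDN7, KRT8 and KRT19) had no H3K9me2 region there. CLDN3 had the most H3K9me2 bases of these, 1200, and no KDM3B. Of the 12 mesenchymal matrix and cytoskeleton genes, expressed like VIM and CDH2 in mesenchymal cells, 5 and 2 had KDM3B and 3 and 8 had H3K9me2. COL1A1 led them with 7400 bases of H3K9me2 in HCT116/ABsh-1 within 5 kb, and 11818 within 20 kb. FN1, COL1A2, MMP2 and ITGA5 also had both KDM3B and H3K9me2. Of the 10 TGF-beta signalling genes, an inducing pathway of the transition, 3 and 1 had KDM3B and 3 and 6 had H3K9me2, SMAD3 and SMAD7 having both. The most H3K9me2 among them was at TGFB1, over 1600 bases. In order, these 3 groups had KDM3B of HCT116/Scrsh at 61.5%, 41.7% and 30.0% of genes, beside 35.0% of protein-coding genes. For KDM3B of HCT116/ABsh-1 the shares were 23.1%, 16.7% and 10.0%, beside 19.2%. H3K9me2 was at 0%, 25.0% and 30.0% in HCT116/Scrsh, beside 10.2%, and at 53.8%, 66.7% and 60.0% in HCT116/ABsh-1, beside 49.2%.

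The miR-200 family, which represses ZEB1 and ZEB2 and is in turn repressed by them, had regions of KDM3B and H3K9me2. Its mature sequences from RefSeq (GRCh38.p14 table) are shown with the seed, bases 2 to 8, in capitals, because the family falls into groups by that seed.
miR-141-3p: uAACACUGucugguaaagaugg
miR-200a-3p: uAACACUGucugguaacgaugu
miR-200b-3p: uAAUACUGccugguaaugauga
miR-200c-3p: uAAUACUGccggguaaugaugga
miR-429: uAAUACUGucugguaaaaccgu

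The seed groups do not follow the genes' places, since MIR200B, MIR200A and MIR429 lie together on chromosome 1 and MIR200C and MIR141 on chromosome 12. Genes of a cluster share regions and are not independent. Within 5 kb of MIR200B, the H3K9me2 list of HCT116/ABsh-1 held 7 regions, and an 800-bp region with score 105 at hg19 chr1:1102401-1103200 covered its hairpin, while KDM3B was called in HCT116/Scrsh in 2 regions and in HCT116/ABsh-1 in 0. Within 20 kb of MIR200B that H3K9me2 list held 24 regions, so they were not confined to the miRNA genes. MIR141 had 3 KDM3B regions in HCT116/Scrsh, one of which reached into its hairpin, and 2 in HCT116/ABsh-1. It had 2 H3K9me2 regions in HCT116/ABsh-1, with scores of 19 and 31. Neither cluster had an H3K9me2 region within 5 kb in HCT116/Scrsh. Of the miRNA targets ZEB1 and ZEB2, ZEB1 had 3 KDM3B regions in HCT116/Scrsh, 2 of them within 5 kb, and none in HCT116/ABsh-1. ZEB2 had no KDM3B region in either cell population.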

How the data were processed

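Sequencing reads of 50 bases were aligned by the authors with Bowtie (version not given in the sources used here) to hg19, keeping reads at unique positions with up to 2 mismatches and 1 read per position. They counted reads in 100-bp windows and called regions by a Poisson test of ChIP against input, asking for 2 neighbouring significant windows. The deposited lists give each region's position and a whole-number score, whose unit is not stated. From 41.3% to 72.9% of the regions in a list, and 17 of the 34 member regions, are nevertheless single 100-bp windows, which do not meet that criterion as stated. Regions were placed on GENCODE 44 (lift37, the same build) with Python 3.11.15, pandas 2.3.3 and pysam 0.24.0, and an overlap of at least 1 base with a window counted. All 4 lists were used whole, with 1 library each and no test. The placement script was checked on simulated regions. All 8 members are named. Other pathway genes are named where they had both KDM3B and H3K9me2 of HCT116/ABsh-1 within 5 kb, or the most H3K9me2 bases of their group. The remaining names in the text were chosen after their values were seen. The members and gene lists were chosen with earlier results of these data known. Alternatives changed the window, the TSSs, the overlap and the regions kept.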

Additional observations from a re-analysis of the deposited data

How the results depend on the processing

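Of 92 recomputed counts over 16 results, 65 stayed within 1.5 times the value reported and 27 moved further, mostly when low-scoring or narrow regions were left out. With the higher-scoring 50% of each list, members within 5 kb, within 20 kb and in the gene body fell to 3, 5 and 4 for H3K9me2 in HCT116/ABsh-1, those within 20 kb and in the body to 1 and 1 for H3K9me2 in HCT116/Scrsh, and those in the body to 2 for KDM3B in HCT116/Scrsh. Member regions fell to 6 for KDM3B in HCT116/Scrsh, and to 1 and 8 for H3K9me2 in HCT116/Scrsh and HCT116/ABsh-1. With equal numbers of regions per antibody, the 4 H3K9me2 counts of HCT116/ABsh-1 were all 0, while KDM3B in HCT116/Scrsh had 2 members in the body and 6 regions. With regions of at least 200 bp, chosen after seeing the data, the 4 H3K9me2 counts of HCT116/Scrsh were 0, KDM3B in HCT116/Scrsh had 2 members in the body and 6 regions, and H3K9me2 in HCT116/ABsh-1 had 9 regions. A 2 kb window gave 3 members for KDM3B in HCT116/Scrsh, 1 for KDM3B in HCT116/ABsh-1 and 0 for H3K9me2 in HCT116/Scrsh. The canonical TSS alone left 1 member within 20 kb, and the canonical transcript, also chosen later, 1 in the body, for H3K9me2 in HCT116/Scrsh. Fewer regions or smaller windows make these counts smaller by construction. The region centre in place of any overlap, and merging regions under 1 kb apart, moved no count past 1.5 times.

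No paired analysis was possible because each antibody and cell population has 1 library and no result comes from a test. Unknown depth limits what an absent region means.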
